A study of Mus musculus with 6 samples.

Results

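The miR-221 and miR-222 pair comprises 4 mature microRNA (miRNA) strands, mmu-miR-221-3p, mmu-miR-221-5p, mmu-miR-222-3p and mmu-miR-222-5p, which are cut from a pair of neighbouring hairpins. They were taken by name from a table of 1390 miRNAs, where 4 of 4 were present, and 4 of 4 were among the 519 miRNAs with enough counts to be tested. Small RNA of whole thymus was sequenced in wild-type C57BL mice aged 5 weeks. Irradiated mice had received X-rays at a dose of 6 Gy (dose rate 800 cGy/min, source at 40 cm), and control mice had received no irradiation. The thymus was taken after 24 h, with n = 3 mice in each group, and the labels name no mutant allele and no other experimental treatment. The substrain and the sex are not given. Whole tissue was used, so fewer cells of a type and less RNA per cell cannot be told apart in any result.

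MiRNAs guide Argonaute proteins to messenger RNAs that pair with the seed, bases 2 to 8 of the miRNA, and so lower the output of those messengers. The family of miR-221 and miR-222 is known for repressing Kit, the receptor for stem cell factor carried by early thymic progenitors and mast cells, and Cdkn1b, the gene of the cyclin-dependent kinase inhibitor p27Kip1, which holds cells out of the cell cycle. It is abundant in endothelial cells and vascular smooth muscle, and in human blood formation its decline accompanies the maturation of red cell precursors. The series title names the PI3K-AKT pathway, in which AKT restrains FoxO factors that drive Cdkn1b and the cell death genes Bbc3 and Bcl2l11.

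The mature sequences are shown because the 3p strands share a seed and the 5p strands do not. Seeds are in capitals, and each sequence runs from its 5′ end.
miR-221-3p: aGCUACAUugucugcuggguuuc
miR-222-3p: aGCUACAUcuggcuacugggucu
miR-221-5p: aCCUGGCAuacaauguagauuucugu
miR-222-5p: cUCAGUAGccaguguagaucc
The first 8 bases of miR-221-3p and miR-222-3p are identical, and 11 of 23 bases match when both are aligned from base 1 without gaps. No other row of the table has this seed, so 2 of 1390 rows form the seed family. Each 5p strand has a seed found in 1 row, its own, and the 5p strands match each other at 2 of 21 bases. The deposited sequences of miR-221-3p, miR-221-5p and miR-222-3p are the same as those of RefSeq (GRCm38.p6). That of miR-222-5p is as deposited.

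Both hairpins lie on the minus strand of chromosome X. By matching the deposited precursor to RefSeq (GRCm38.p6), Mir222 was placed at chrX:19146893-19146971 and Mir221 at chrX:19146294-19146388, with 504 bases between them. MiR-222 comes first in the direction of transcription. No other gene of GENCODE M21 overlaps either hairpin. The nearest annotated gene upstream is the noncoding Gm14636 (chrX:19156981-19167241, also on the minus strand), which lies 10009 bases away, and the nearest on the other side is the pseudogene Gm5383 at a distance of 203065 bases. The hairpins are given with both mature strands in capitals, since the arms are compared in the results.
mir-221: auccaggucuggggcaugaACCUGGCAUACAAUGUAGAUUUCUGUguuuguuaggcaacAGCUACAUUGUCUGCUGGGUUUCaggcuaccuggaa
mir-222: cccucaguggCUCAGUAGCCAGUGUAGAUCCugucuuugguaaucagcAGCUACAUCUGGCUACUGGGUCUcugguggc

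The letters that pair with the 3p seed, ATGTAGC, were looked for on the sense strand of the longest GENCODE 3′ UTR of 10 genes, chosen as reported targets of the family or as members of its pathway. They were found in 8 of the 10, and in 9.43% of all 20980 protein-coding 3′ UTRs. The 10 were chosen and not drawn at random, so these shares are a description and not a test. Since a longer UTR holds a given motif more often, the share among UTRs within 10% of the same length is given for each gene. The matches in Kit, Cdkn1b, Cdkn1c (the related inhibitor p57Kip2) and Bbc3 (the cell death protein Puma) are shown with the matching letters in capitals, because these genes connect the family to growth factor signals, the cell cycle and cell death.
Kit, chr5:75654980-75655001: gatgggagatatATGTAGCaag
Kit, chr5:75656511-75656532: gtaaatattgaaATGTAGCaat
Cdkn1b, chr6:134924419-134924440: taaaagcattggATGTAGCatt
Cdkn1c, chr7:143458923-143458944: gacctttcgttcATGTAGCagg
Bbc3, chr7:16317319-16317340: tttttctgcaccATGTAGCata
All coordinates are GRCm38, and Cdkn1c lies on the minus strand. In each of these 5 matches the next base is A, the letter that lengthens a seed match. Kit holds 2 matches in a UTR of 2177 bases, where 15% of UTRs of like length hold at least 1. Cdkn1b holds 1 in 3439 bases (23.3% of UTRs of like length), Cdkn1c 1 in 688 bases (4.99%) and Bbc3 1 in 971 bases (5.06%). Bcl2l11 (29.6% of UTRs of like length) and Ets1 (22.5%) hold 2 each, and Timp3 (24.9%) and Ddit4 (5.57%) hold 1 each. The letters are not in the UTRs used for Pik3r1 (30.7%) or Foxo3 (31.6%). For all but Cdkn1c, Bbc3 and Ddit4, UTRs of like length hold the letters more often than UTRs as a whole. Messenger RNA was not analysed here, so no target was measured.

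The libraries held 7730641 to 9287017 counts, with 828 to 924 miRNAs counted in each. A count of 0 would allow a level of up to 3 counts, or 0.323 to 0.388 CPM (counts over the library total, on the scale of TPM), and all 4 strands were counted in all 6 libraries. Marker sums and levels from here on are CPM scaled by trimmed-mean (TMM) factors. Markers of the thymus were present: the summed level of 5 thymocyte and lymphoid miRNAs was 4224 to 6969 CPM in irradiated libraries and 93859 to 158736 CPM in control libraries. Irradiated replicates 2 and 3 stood apart from replicate 1 in 3 striated-muscle miRNAs, whose sum was 602, 20116 and 13396 CPM in irradiated replicates 1, 2 and 3 and 202 to 480 CPM in control libraries. Each strand is therefore also given without those 2 libraries. This leaves a single irradiated library, whose spread cannot be estimated, so only the size of the change is given.

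After irradiation 3 of the 4 strands rose, 0 fell, and miR-221-3p was higher without passing the threshold. The largest change was in miR-222-3p, 2.61-fold, and that of miR-221-3p was 1.52-fold, with the 5p strands between them. Counts were tested with edgeR's quasi-likelihood test, the p-values were adjusted over all 519 miRNAs by Benjamini-Hochberg, and an adjusted p under 0.05 passed. Among all tested miRNAs 61.3% passed, 27.7% as higher in irradiated thymus. Irradiated lay above control in all 6 libraries for 4 of 4 strands in scaled CPM, as it did for 32% of the tested miRNAs (68.6% in either direction), so a separation of this kind was common in these libraries.

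MiR-222-3p, a guide strand with the Kit-pairing and Cdkn1b-pairing seed, was at 121.5, 111.4 and 132.0 CPM in irradiated replicates 1, 2 and 3, and at 45.5, 40.5 and 53.6 CPM in control replicates 1, 2 and 3. Every irradiated library was above every control library by a wide margin. The mean was 121.6 ± 10.3 CPM in irradiated thymus and 46.5 ± 6.64 CPM in control thymus (SD, n = 3 each). The log2 fold change was 1.39 ± 0.26 (SE), with an edgeR adjusted p of 0.00135. Of the tested miRNAs 17.9% had a more positive change than miR-222-3p. That share was 26.8% for miR-221-5p, 27% for miR-222-5p and 35.8% for miR-221-3p. MiR-222-3p passed under every alternative with more than 1 library in each group, with an edgeR, DESeq2 or limma adjusted p of at most 0.0160. Without irradiated replicates 2 and 3 the log2 fold change was 1.59.

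MiR-221-3p, the guide strand with the same seed, was at 121.6, 99.2 and 110.1 CPM in irradiated replicates 1, 2 and 3, and at 80.7, 67.4 and 69.6 CPM in control replicates. The groups did not overlap, but the gap was narrower than for miR-222-3p. The mean was 110.3 ± 11.2 CPM in irradiated thymus and 72.6 ± 7.17 CPM in control thymus (SD, n = 3 each). The log2 fold change was 0.60 ± 0.25 (SE), and the edgeR adjusted p was 0.0567, above the threshold. It passed without irradiated replicate 2 (0.88, edgeR adjusted p of 0.0138). Without irradiated replicates 2 and 3 the log2 fold change was 0.94. Over the alternatives with more than 1 library in each group, the edgeR, DESeq2 and limma adjusted p ranged from 0.00651 to 0.332. The direction was upward in all 17 alternatives.

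**Figure D1:**
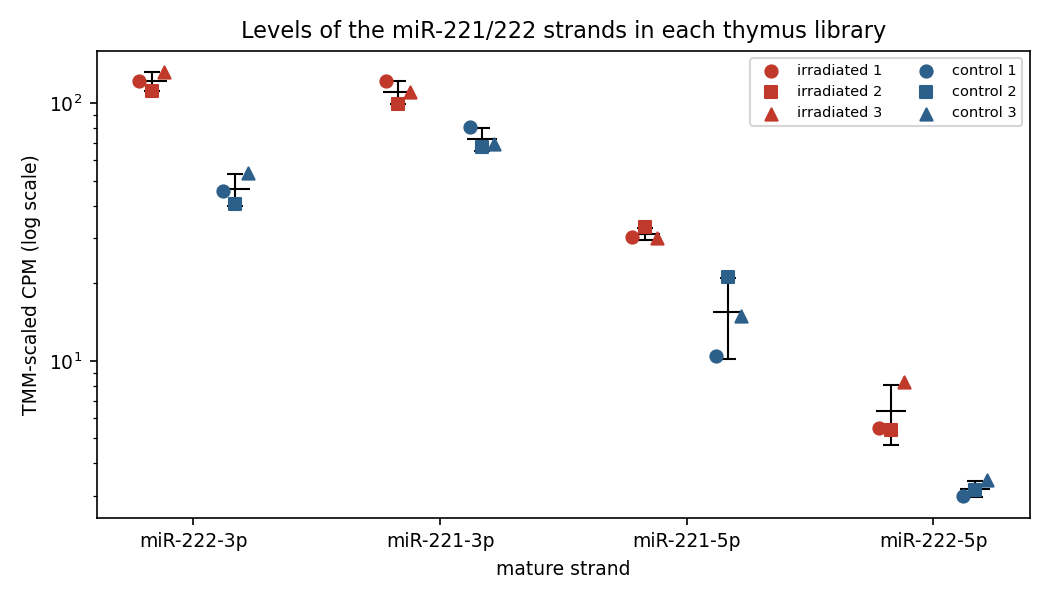
TMM-scaled CPM of each strand (log axis) in every library, with irradiated libraries in red to the left of control libraries in blue. Marker shapes give the replicate, and the black bars are the mean and SD over n = 3. The miR-222-3p points sit at 111.4 to 132.0 CPM in irradiated and 40.5 to 53.6 CPM in control libraries, and no strand has an irradiated point at or below a control point.

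MiR-221-5p, the opposite strand of the miR-221 hairpin, was at 30.3, 33.1 and 29.8 CPM in irradiated replicates 1, 2 and 3, and at 10.4, 21.2 and 15.0 CPM in control replicates. The irradiated libraries lay close together while the control libraries were spread widely, with replicate 1 lowest and replicate 2 highest. The mean was 31.1 ± 1.76 CPM in irradiated thymus and 15.5 ± 5.39 CPM in control thymus (SD, n = 3 each). The log2 fold change was 1.00 ± 0.31 (SE), with an edgeR adjusted p of 0.0197. It did not pass without control replicate 1 (0.84, edgeR adjusted p 0.0718) or without control replicate 3 (1.07, edgeR adjusted p 0.0546). Over the alternatives with more than 1 library in each group, its adjusted p by edgeR, DESeq2 or limma lay between 0.00188 and 0.176. Without irradiated replicates 2 and 3 the log2 fold change was 1.15. In the authors' TPM (each count over the library total), control replicate 2 was at 29.5, above irradiated replicate 1 at 26.8, so on that scale the groups overlapped. Control replicate 2 had the highest TMM factor of the 6 libraries, 1.39, against 0.823 in control replicate 1.

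MiR-222-5p was the scarcest strand, with 42, 45 and 78 counts in irradiated replicates 1, 2 and 3 and 21, 34 and 28 counts in control replicates. Scaled, it was at 5.48, 5.37 and 8.28 CPM in irradiated libraries and at 3.00, 3.16 and 3.44 CPM in control libraries. Irradiated replicate 3 was well above the other irradiated libraries, and the groups did not overlap. The mean was 6.38 ± 1.65 CPM in irradiated thymus and 3.20 ± 0.223 CPM in control thymus (SD, n = 3 each). The log2 fold change was 1.00 ± 0.34 (SE), with an edgeR adjusted p of 0.0261. It did not pass without control replicate 1, 2 or 3 (edgeR adjusted p of 0.0732, 0.0959 and 0.0561) or without irradiated replicate 3 (0.0790). Without irradiated replicates 2 and 3 the log2 fold change was 0.97. Over the alternatives with more than 1 library in each group, the edgeR, DESeq2 and limma adjusted p ranged from 0.00374 to 0.155.

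**Figure D2:**
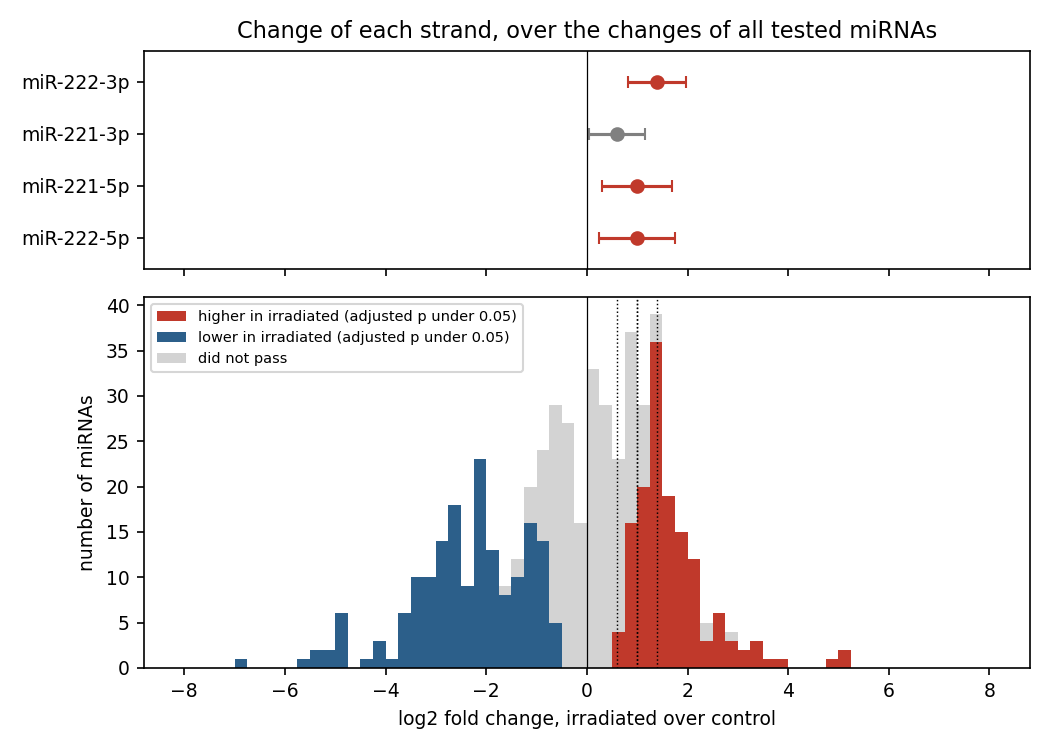
Top, log2 fold change of each strand (irradiated over control) with its 95% interval, in red where it passed and grey where it did not. Bottom, the number of the 519 tested miRNAs at each log2 fold change, in red where higher, blue where lower and grey where not passing, with dotted lines at the 4 strands. The strands fall at 0.60 to 1.39, within the main body of the higher miRNAs.

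The calls moved with the scaling. Other scaling factors shift the log2 changes of all miRNAs by nearly the same amount. The change relative to their median is therefore nearly fixed by construction, and it is given as a description and not as a check. Over the 519 miRNAs the median log2 change came to 0.01 when TMM factors were used. It came to 0.44 for upper-quartile factors, 0.12 for median-of-ratios factors and -0.13 for library totals. Measured from these medians, miR-222-3p was at 1.37 to 1.38, miR-221-3p at 0.59 to 0.60, miR-222-5p at 0.98 to 0.99 and miR-221-5p at 0.89 to 1.00 under the 4 scalings. All 4 strands passed with median-of-ratios and upper-quartile factors, and miR-222-3p alone passed with library totals. The calls over all 519 miRNAs moved too. With TMM factors 144 passed as higher, with median-of-ratios factors 165, with upper-quartile factors 206 and with library totals 106.

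**Figure D3:**
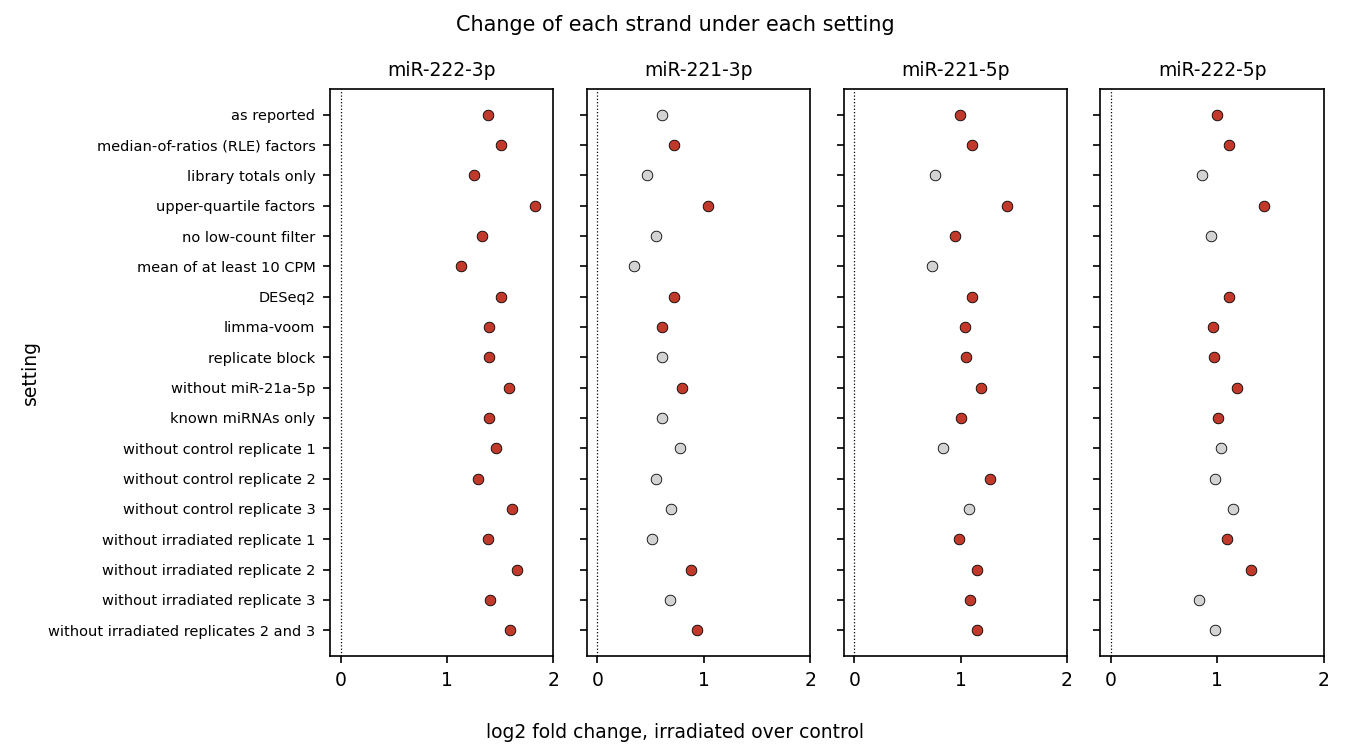
Log2 fold change of each strand (irradiated over control) under each setting, in red where the adjusted p was under 0.05 and grey where it was not. Every point lies to the right of 0, and miR-222-3p is the strand that is red throughout.

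By group mean the leading strand was miR-222-3p in irradiated thymus and miR-221-3p in control thymus, while in irradiated replicate 1 the 3p strands were level, at 931 counts of miR-222-3p and 932 of miR-221-3p. A read covers a whole mature miRNA, so counts were not divided by length, but ligation favours some ends over others and levels of different strands are read counts rather than molecule numbers. In irradiated thymus miR-222-3p (111.4 to 132.0 CPM) and miR-221-3p (99.2 to 121.6 CPM) overlapped, followed by miR-221-5p (29.8 to 33.1 CPM) and miR-222-5p (5.37 to 8.28 CPM), which did not. In control thymus the order was miR-221-3p (67.4 to 80.7 CPM), miR-222-3p (40.5 to 53.6 CPM), miR-221-5p (10.4 to 21.2 CPM) and miR-222-5p (3.00 to 3.44 CPM), with no neighbours overlapping. By count, miR-222-3p ranked 134th to 145th among the table's miRNAs in irradiated libraries and 195th to 206th in control libraries, and miR-221-3p 133rd to 154th and 165th to 181st.

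The ratio of the guide strands does not depend on library scaling. Counts of miR-221-3p over those of miR-222-3p were 1.00, 0.891 and 0.834 in irradiated replicates 1, 2 and 3, and 1.77, 1.67 and 1.30 in control replicates. All 3 irradiated libraries were below all 3 control libraries. How often ratios of other miRNA pairs separate in this way was not counted, and 68.6% of single tested miRNAs separated in either direction. On the log2 scale the mean ratio was -0.14 ± 0.13 in irradiated thymus and 0.64 ± 0.24 in control thymus (SD, n = 3 each), a difference of -0.79. The exact two-sided permutation p was 0.1, the smallest that 3 against 3 libraries allow, and 0.15 adjusted over the 3 exact tests made. For the opposite strands, miR-221-5p over miR-222-5p, the log2 ratio was 2.27 ± 0.39 in irradiated and 2.14 ± 0.49 in control thymus (SD, n = 3 each), with overlapping groups and an exact permutation p of 0.8 (0.8 adjusted).

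The seed family as a whole, miR-221-3p plus miR-222-3p, held 0.0215%, 0.0207% and 0.0246% of all counts in irradiated replicates 1, 2 and 3, and 0.0104%, 0.0150% and 0.0122% in control replicates. The 95% Wilson intervals ran from 0.0197% to 0.0256% over the irradiated libraries and from 0.00972% to 0.0159% over the control libraries, and they cover counting error alone, since PCR copies were not told apart from molecules. The mean share was 0.0222% ± 0.00204 in irradiated and 0.0125% ± 0.00234 in control thymus (SD, n = 3 each), a ratio of 1.77, with an exact permutation p of 0.1 (0.15 adjusted). MiR-222-3p made up 50.0%, 52.9% and 54.5% of the family in irradiated replicates 1, 2 and 3, with 95% Wilson intervals from 47.7% to 56.6%. In control replicates it made up 36.0%, 37.5% and 43.5%, with intervals from 32.9% to 46.6%.

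Both hairpins yielded mostly the 3p strand, miR-222 more so than miR-221. The 5p strand made up 19.9%, 25.0% and 21.3% of the miR-221 hairpin's counts in irradiated replicates 1, 2 and 3 (95% Wilson intervals from 17.7% to 27.6%), and 11.4%, 23.9% and 17.7% in control replicates (9.18% to 26.7%). These groups overlapped, with control replicate 1 lowest. For miR-222 the 5p strand made up 4.32%, 4.60% and 5.90% in irradiated replicates (95% Wilson intervals from 3.21% to 7.31%) and 6.18%, 7.23% and 6.02% in control replicates (4.07% to 9.94%). Irradiated libraries were below control libraries here, by little compared with the intervals. The log2 ratio of 3p over 5p was tested with limma over the 146 hairpins with both strands past the low-count filter, of which 13.7% passed. It was 1.82 ± 0.22 in irradiated and 2.26 ± 0.63 in control thymus for miR-221 (SD, n = 3 each), a difference of -0.44 (95% interval -1.29 to 0.40, limma adjusted p of 0.433). For miR-222 it was 4.23 ± 0.24 in irradiated and 3.76 ± 0.14 in control thymus (SD, n = 3 each), a difference of 0.47 (95% interval -0.18 to 1.12, limma adjusted p of 0.304). Neither passed, and both intervals are wide beside the changes of the strands themselves.

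**Figure D4:**
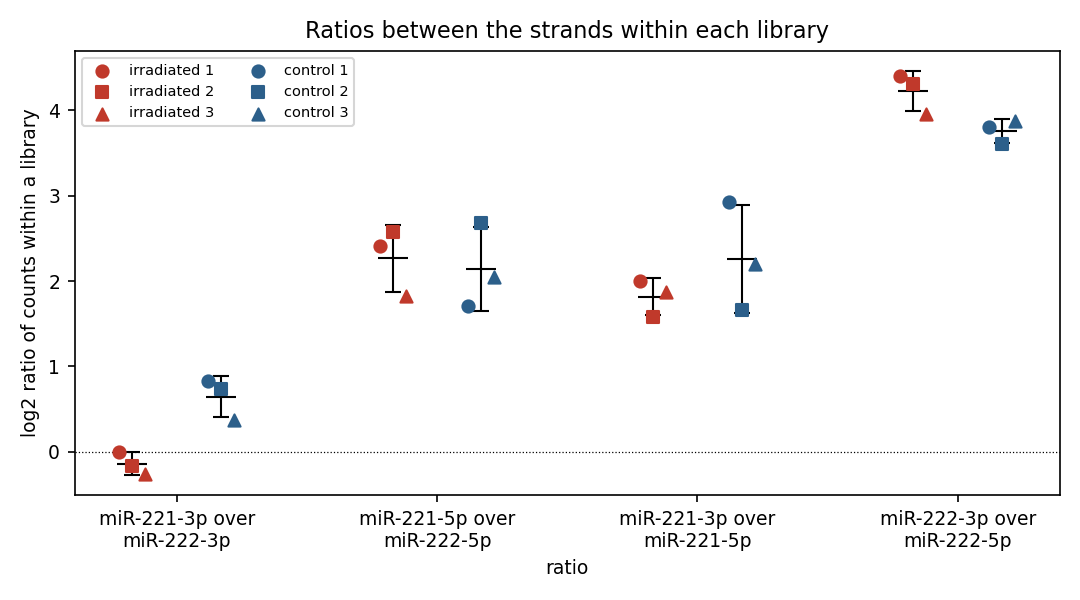
Log2 ratios of counts within each library (prior count 2), irradiated in red to the left of control in blue, with marker shapes for replicates and bars for the mean and SD over n = 3. For miR-221-3p over miR-222-3p the irradiated libraries lie at 0.00 to -0.26 and the control libraries at 0.37 to 0.82, while the other ratios overlap or lie close.

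A list of 12 other miRNAs known from cultured cells to repress Cdkn1a, Cdkn1b or Cdkn1c was set beside the family, whose best-known target among these is Cdkn1b. Of the 12, all tested, 8 fell, 2 rose and 2 did not pass, where 33.5% of all tested miRNAs fell and 27.7% rose. The median log2 fold change of the list was -2.15, where all tested miRNAs had a median of 0.01. The 7 members of the miR-17, miR-106 and miR-25 groups, which act mainly on Cdkn1a and Cdkn1c, fell. Some of these share a cluster and are not separate observations. The median of the list falls among their changes, and the rest of the list had no common direction. The most abundant member, miR-148a-3p, was at 96114 ± 15980 CPM in irradiated and 96934 ± 32798 CPM in control thymus (SD, n = 3 each) and changed by -0.01 (edgeR adjusted p of 0.973). MiR-25-3p, which represses Cdkn1c, was at 1403 ± 267 CPM in irradiated and 14069 ± 2457 CPM in control thymus and changed by -3.33 (adjusted p of 1.76e-05). MiR-24-3p was at 5548 ± 1015 CPM in irradiated and 4070 ± 216 CPM in control thymus and did not pass (0.45, adjusted p of 0.119). Those that rose were miR-152-3p (0.95) and miR-196a-5p (1.09), and the eighth member to fall was miR-196b-5p (-1.18, at 0.823 CPM in irradiated and 1.91 CPM in control thymus). On levels, the 3p strands of the pair were scarce beside miR-148a-3p and miR-24-3p in both groups.

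Among 5 other miRNAs known to repress Kit, 3 could be tested. MiR-193b-3p rose to 26.8 ± 24.0 CPM in irradiated thymus against 3.37 ± 0.789 CPM in control thymus (SD, n = 3 each, log2 fold change 2.99, edgeR adjusted p of 0.00281). MiR-34a-5p was at 203.0 ± 119 CPM in irradiated and 201.6 ± 16.1 CPM in control thymus and did not pass (0.01, adjusted p of 0.980). MiR-494-3p did not pass (0.49), and miR-193a-3p (3.14 CPM in irradiated and 0.324 CPM in control thymus) and miR-137-3p were too scarce to test. The median of the 3 tested was 0.49.

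The table holds 113 other miRNAs whose genes all lie on chromosome X. Of these 43 were tested, and 6 rose, 20 fell and 17 did not pass, where 27.7% of all tested miRNAs rose and 33.5% fell. Their median log2 fold change was -0.68. The most abundant, miR-532-5p, was at 579 CPM in irradiated and 1142 CPM in control thymus (-0.98, edgeR adjusted p of 0.00778). MiR-20b-5p, of the miR-106a-363 cluster, was at 34.3 CPM in irradiated and 996.5 CPM in control thymus (-4.86, adjusted p of 4.16e-05), and miR-374b-5p was at 143 CPM in irradiated and 628 CPM in control thymus (-2.13, adjusted p of 0.000198). The 6 that rose were miR-224-5p, miR-672-5p, miR-676-3p, miR-676-5p, miR-503-3p and miR-223-5p, with log2 fold changes of 1.34 to 1.99. These counts are not of separate observations. Several of the 20 that fell are strands of the miR-106a-363 cluster, and those that rose include both strands of miR-676. MiR-374c-3p, which fell, was at 142 CPM in irradiated and 622 CPM in control thymus, nearly the levels of miR-374b-5p.

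Markers of several cell types also differed between the groups, where 27.7% of all tested miRNAs rose and 33.5% fell. Both fibroblast miRNAs rose (832 to 1649 CPM summed in irradiated and 153 to 172 CPM in control libraries), as did 4 of 4 epithelial miRNAs (10721 to 15832 CPM in irradiated and 3167 to 4007 CPM in control libraries). Of the endothelial strands, miR-126a-3p rose and miR-126a-5p did not pass (sum 15678 to 24542 CPM in irradiated and 5059 to 5756 CPM in control libraries). Of the smooth-muscle miRNAs listed, miR-143-3p and miR-145a-5p, 0 of 2 passed (184936 to 296979 CPM in irradiated and 84636 to 232829 CPM in control libraries). The opposite strands of those hairpins, which the list did not hold and which were looked up afterwards, rose: miR-143-5p by 1.46 (edgeR adjusted p of 0.00384) and miR-145a-3p by 1.75 (edgeR adjusted p of 0.00134). Of the thymocyte and lymphoid miRNAs 4 of 5 fell and miR-150-5p did not pass. Nor did its opposite strand, miR-150-3p (-1.27, edgeR adjusted p of 0.0504). Striated-muscle miRNAs rose in 3 of 3 and erythroid ones in 2 of 3, with erythroid sums of 604, 5028 and 1982 CPM in irradiated replicates 1, 2 and 3 and 480 to 724 CPM in control libraries, while myeloid miR-223-3p (12.0 to 83.7 CPM in irradiated and 21.3 to 41.7 CPM in control libraries) did not pass. Its opposite strand, miR-223-5p, rose by 1.99 (edgeR adjusted p of 0.00135). No marker in these lists was at 0 throughout. Their part in the change of the pair was not tested.

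**Figure D5:**
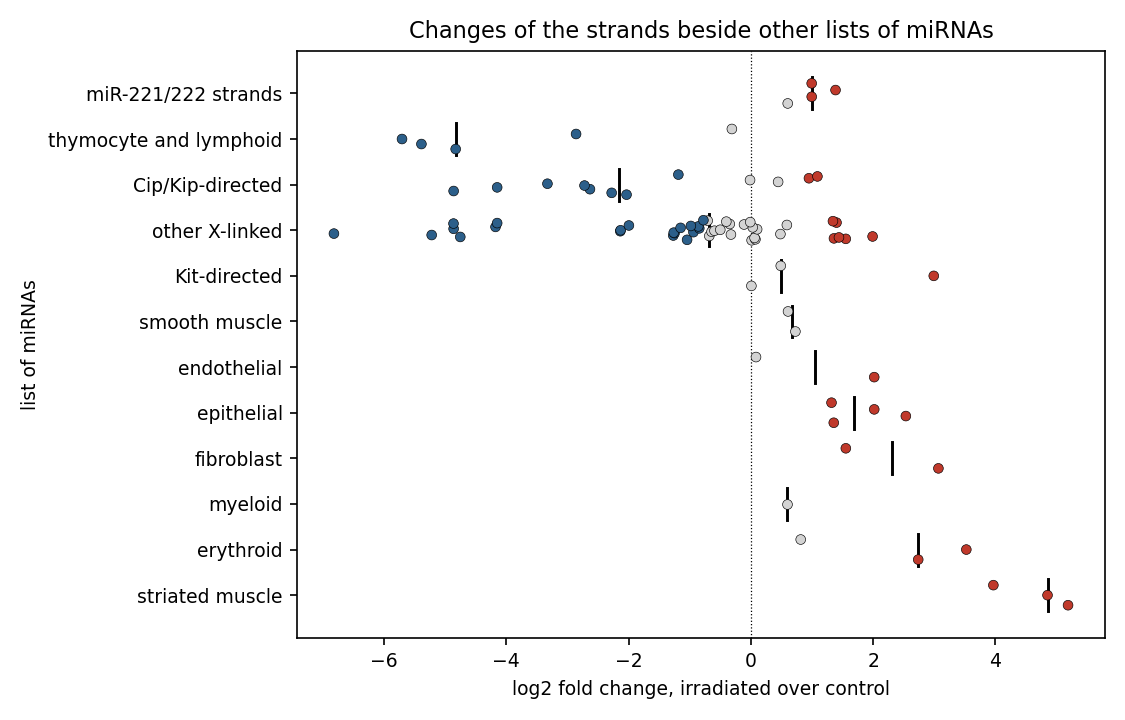
Log2 fold change (irradiated over control) of the 4 strands and of each tested miRNA in the other lists, in red where higher, blue where lower and grey where not passing, with a black bar at each median. The strands lie above 0, as do the medians of the Kit-directed list and of every marker list but the thymocyte and lymphoid one, while the medians of that list and of the Cip/Kip-directed and other X-linked miRNAs lie below 0.

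Over the 6 libraries, log2 levels of miR-221-3p and miR-222-3p had a Pearson r of 0.93 with each other, and those of miR-222-3p and miR-222-5p 0.94. MiR-221-5p was less alike, with r of 0.68 to miR-221-3p and 0.82 to miR-222-3p. The miRNAs most like miR-221-3p were miR-26b-5p (0.994), miR-100-5p (0.985) and miR-205-5p (0.984), and those most like miR-222-3p were miR-99b-5p (0.995), miR-200b-3p (0.991) and miR-27b-5p (0.985). Each of these 6 passed as higher in edgeR, with log2 fold changes of 1.12 to 2.54. These values describe 6 libraries that share scaling factors and fall into 2 groups, and 11 and 22 tested miRNAs had an r over 0.95 to miR-221-3p and miR-222-3p.

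In the authors' deposited table the log2 fold changes were 1.46 for miR-222-3p, 1.06 for miR-221-5p, 1.06 for miR-222-5p and 0.67 for miR-221-3p. The adjusted p-values of the authors' deposited table were 2.34e-05, 0.0127, 0.0558 and 0.0750 in that order, so 2 of 4 passed 0.05, where 43.9% of 741 miRNAs with a value did. That table marks 4 of 4 as significant, miR-222-5p and miR-221-3p included. It rests on the same libraries and is no separate check.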

How the data were processed

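For each of the 6 libraries the authors deposited a read count and a TPM value per mature miRNA, per the file headers. TPM recomputed as count over library total, with no length term, differed from the deposited TPM by at most 4.61e-05. Beside these stand p-values, adjusted p-values and log2 fold changes (irradiated over control) as the authors deposited them. The submitters' processing notes name DESeq2 1.10.1. Aligner, counter and genome build: not given in the sources used here. Per the labels' protocols RNA was extracted with TRIzol and libraries were made with NEBNext kits, and the molecule is labelled polyA RNA. Another 6 columns of counts match no label and were left out.

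The counts went into edgeR 4.0.16 under R 4.3.3 (TMM factors, filterByExpr defaults, robust quasi-likelihood test), and strand ratios with limma 3.58.1 on log2 counts with prior count 2. Standard errors are the log2 fold change over the root of F. Alternatives included DESeq2 1.42.0. The edgeR and limma steps were tested on simulated data. There edgeR recovered 47.8% of miRNAs with a log2 change of 1 and 95.1% of those with a change of 2. Of unchanged miRNAs it called 2.24%. Groups come from the treatment labels. Named miRNAs were the 4 strands, rows with the same seed, the 3 most abundant of each target or chromosome list and the 3 most alike by Pearson r. Other miRNAs named for a count, or as markers, add to these. Members and lists were chosen with earlier results of these data known. Chromosome X membership used RefSeq names and precursors, which placed 1175 of 1390 rows. A further gene chosen for the seed-match search is not reported here.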

Additional observations from a re-analysis of the deposited data

How the results depend on the processing

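Among the settings run, all 4 strands were higher in irradiated thymus under each alternative that gave a value. MiR-222-3p passed in each with more than 1 library per group (1.13 to 1.83 on the log2 scale). MiR-221-3p also passed with median-of-ratios factors (0.72), upper-quartile factors (1.04), DESeq2 (0.72), limma-voom (0.60) and without miR-21a-5p (0.80). MiR-221-5p did not pass with library totals (0.76) or at a mean of at least 10 CPM (0.73). MiR-222-5p did not pass with library totals (0.85) or no low-count filter (0.94), and is under the 10 CPM minimum. Leaving out 1 library gave 0.51 to 0.88 for miR-221-3p, 0.84 to 1.28 for miR-221-5p, 1.29 to 1.66 for miR-222-3p and 0.83 to 1.32 for miR-222-5p. Of the strands, 3 passed as reported, 4 with median-of-ratios or upper-quartile factors, 1 each with library totals, 10 CPM, an adjusted p of 0.01 or a 2-fold minimum, and 1 to 4 with 1 library left out. Over all miRNAs 318 passed (45.3% of them higher), 210 of the fewer tested at 10 CPM and 266 to 374 with 1 library left out. In all, 276 passed with library totals, 327 with median-of-ratios factors and 345 with upper-quartile factors. The share of calls that were higher was 59.7% with upper-quartile factors. The cause of these differences was not tested.

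Neither strand ratio passed under any alternative that gave a value, miR-222 giving none with both strands at 10 CPM (-0.74 to -0.11 for miR-221 and 0.38 to 0.60 for miR-222 with 1 library left out). The number of hairpins with a changed ratio was 20 in limma, 40 with prior count 10, 12 with both strands at 10 CPM and 0 to 37 with 1 library left out. It was 37 without irradiated replicate 1, 1 without control replicate 1, and 0 without control replicate 2 or 3 or irradiated replicate 3, where 34, 39 and 40 hairpins had an unadjusted p under 0.05. No other tool was run on these ratios. The difference in miR-221-3p over miR-222-3p was -0.92 to -0.70 with 1 library left out, and that of the 5p strands -0.09 to 0.39. The difference in the family's share of counts was 0.00971 percentage points, 0.0166 without miR-21a-5p in the total, and 0.00856 to 0.0110 with 1 library left out.

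Deviations of same-numbered libraries correlated at 0.0994, -0.0244 and 0.230, the last being the highest between any irradiated and any control library. Not every library correlated best with its own number. With 3 libraries per group these values cannot settle whether the replicate number pairs the libraries. With the replicate block 3 strands passed (0.60, 1.05, 1.39 and 0.97 for miR-221-3p, miR-221-5p, miR-222-3p and miR-222-5p), 298 miRNAs passed in all, and 33 hairpins had a changed ratio. The scarce miR-222-5p, at 21 to 78 counts, is the strand most limited by depth.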
